A study of Mus musculus with 2 samples.

Results

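The genes of oxidative phosphorylation were followed across the cell types of Bm12 heart grafts examined on postoperative day (POD) 14. Members were chosen by symbol alone: every gene symbol starting with Nduf (Ndufaf assembly factors left out), Uqcr, Atp5, Cox4i, Cox5, Cox6, Cox7 or Cox8, the genes Sdha to Sdhd, and every symbol starting with mt-. That gave 98 of the 22337 symbols in the table, 85 of them nuclear and 13 mitochondrial (mt-). The nuclear members comprised 39 genes of complex I, 4 of complex II, 8 of complex III, 17 of complex IV and 17 of complex V. Every one of the 98 members had at least 1 unique molecular identifier (UMI), and 91 had 200 or more.

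Hearts of Bm12 mice, which differ from C57BL/6 (B6) mice at an MHC class II locus, were transplanted heterotopically into B6 recipients. In the IL-33+ group (3 hearts, numbered 1 to 3, 2762 cells) the donors were Bm12 WT. In the IL-33- group (3 hearts, numbered 4 to 6, 1679 cells) the donors were Bm12 Il33-/-, made by crossing Bm12 onto the Il33-/- background, so only donor cells lacked Il33 and recipient cells that entered the graft kept it. Leukocytes were enriched on Lympholyte-M, each heart was marked with a hashtag, and the 4441 cells were sequenced by single-cell RNA-seq (scRNA-Seq) and annotated by the study as 14 types.

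Oxidative phosphorylation is carried out by 5 complexes in the inner mitochondrial membrane. Complex I takes electrons from NADH and complex II from succinate, complex III passes them from ubiquinol to cytochrome c, complex IV hands them to oxygen, and complex V, the ATP synthase, makes ATP from the proton gradient that complexes I, III and IV build. Complexes I, III, IV and V are assembled from subunits encoded in both genomes, whereas every subunit of complex II is nuclear. The heart muscle cell depends on this pathway, and leukocytes are known to change their use of it when they leave the resting state.

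The mitochondrial genes are packed so closely that some share bases, which bears on how their reads can be counted. In the mouse reference (GRCm38.p6), mt-Atp8 and mt-Atp6, both complex V subunits, overlapped by 43 bases on the same strand at chrM:7927-7969. The stretch is shown because it holds the start of mt-Atp6 and the end of mt-Atp8, whose start and stop codons are in capitals.
mt-Atp8/mt-Atp6: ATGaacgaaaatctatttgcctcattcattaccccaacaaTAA
The complex I genes mt-Nd4l and mt-Nd4 shared 7 bases at chrM:10167-10173, again a start codon running into a stop codon, and mt-Nd5 and mt-Nd6 shared 14 bases at chrM:13552-13565 on opposite strands. Reads in such overlaps cannot be assigned by sequence alone. Nuclear members with processed copies, and mt- genes with nuclear copies, could also share reads with those copies, so levels of single members are uncertain to that extent.

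Nuclear members are transcribed from separate promoters. RefSeq promoter windows (GRCm38.p6) were found for 69 of the 85 nuclear members, 2 of them under an older symbol, giving 74 windows, of which the 250 bases upstream of the start were searched on both strands. The letters GCGCATGC, the core bound by nuclear respiratory factor 1 (NRF1), a known activator of respiratory chain genes, were in 10.8% of member windows and 2.26% of all 32851 windows. CCGGAAG, an ETS core of the kind bound by GABP, was in 16.2% of member windows against 6.91%, CCAAT in 40.5% against 33.8%, TATAAA in 9.46% against 12.4% and AAGATGGC, a YY1 core, in 1.35% against 1.56%. Member windows had a median of 14 CpG dinucleotides and 56.4% GC, and all windows 6 and 52.4%. These are matches of letters and were not tested for binding.

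Windows for 3 members are printed with these letters in capitals: Cox6a1, the complex IV isoform used in most tissues, Cox7a1, a heart and skeletal muscle isoform of complex IV, and Atp5e, the epsilon subunit of complex V. They are 3 examples and show no general difference between broadly used and muscle isoforms: the windows of Cox5a, Cox5b, Cox7a2 and Cox7c, all broadly used, held none of these letters.
Cox6a1 (chr5:115348959-115349208, - strand): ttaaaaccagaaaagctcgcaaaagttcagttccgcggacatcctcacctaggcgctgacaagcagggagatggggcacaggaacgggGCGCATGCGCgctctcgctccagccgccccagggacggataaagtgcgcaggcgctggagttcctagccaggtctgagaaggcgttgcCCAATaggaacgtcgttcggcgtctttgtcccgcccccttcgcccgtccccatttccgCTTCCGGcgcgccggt
Cox7a1 (chr7:30183921-30184170, + strand): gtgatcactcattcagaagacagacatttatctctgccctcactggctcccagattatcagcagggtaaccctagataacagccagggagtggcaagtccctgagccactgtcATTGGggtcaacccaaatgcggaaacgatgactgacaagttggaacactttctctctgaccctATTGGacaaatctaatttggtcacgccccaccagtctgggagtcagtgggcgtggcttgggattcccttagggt
Atp5e (chr2:174464102-174464351, - strand): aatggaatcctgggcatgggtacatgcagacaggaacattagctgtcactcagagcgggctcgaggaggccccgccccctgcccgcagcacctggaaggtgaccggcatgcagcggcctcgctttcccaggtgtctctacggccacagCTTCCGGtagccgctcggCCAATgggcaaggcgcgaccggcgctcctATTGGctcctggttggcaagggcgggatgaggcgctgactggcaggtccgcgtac
The Cox6a1 window held NRF1, ETS and CCAAT letters and 26 CpG, the Atp5e window ETS and CCAAT letters and 19 CpG, and the Cox7a1 window CCAAT letters alone and 4 CpG.

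Cells held 1500 to 14977 UMIs (median 3698), and the hearts 230 to 1666 cells and 908139 to 7012940 UMIs. Heart 2, with 230 cells, and heart 5, with 284, gave the least precise values, and the fewest cells of a type in a heart ran from 2 unconventional T cells to 33 NK cells. The transcript of Il33 did not check the labels: in fibroblasts, the type in which it could be tested, it had 7, 0 and 121 UMIs in the IL-33+ hearts and 9, 3 and 5 in the IL-33- hearts, a log2 difference of -0.72 (95% confidence interval (CI) -2.33 to 0.89, limma adjusted p = 0.998). The groups are therefore named as the hearts were labelled. Cardiomyocyte transcripts were scarce in the enriched cells, the 19 markers together reaching 0 to 136 CPM (a gene's UMIs scaled to a common total per cell, as the mean of a heart's cells of that type) in any type of any heart. The 8 erythrocyte and platelet markers were not scarce and varied widely between hearts. Together they reached 25362 CPM in Mo-DCs of heart 4, 17382 CPM in B cells of heart 6 and 15969 CPM in Treg of heart 5. In B cells of heart 5 they were at 66.6 CPM. Their UMIs are part of the totals, and their effect on the shares was not tested. Summed B cell markers had a mean of 3242 CPM in B cells and at most 75.9 CPM elsewhere, fibroblast markers 25207 CPM in fibroblasts and at most 564 CPM elsewhere, and Treg, NK, naive T cell, monocyte, macrophage and cDC markers were each highest in the type of that name. T cell markers were highest in Tem/eff (2400 CPM), whereas unconventional T cells had 689 CPM of them beside 3254 CPM of macrophage markers, and Mo-DCs had 18728 CPM of neutrophil markers, more than any other type.

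Nuclear and mt- transcripts ranked the types in different orders. Nuclear members took 1.61% ± 0.144 of a cell's UMIs in cDCs (SD, n = 6 hearts), 1.55% ± 0.11 in macrophages and 0.833% ± 0.123 in fibroblasts, the highest types and the lowest. The mt- members took 8.47% ± 0.519 in B cells, 7.34% ± 0.481 in naive T cells (Tn) and 4.22% ± 0.478 in monocytes. B cells, first in mt- share, were thirteenth of the types in nuclear share, at 1.02% ± 0.0687, and monocytes, last in mt- share, were at 1.49% ± 0.0869.

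In nuclear share, cDCs, macrophages, NKT cells (1.51%), effector T cells (Tem/eff, 1.5%), monocytes and unconventional T cells (1.48%) formed the upper end, and neighbours among them kept their order in 3 to 5 of 6 hearts, which is within the spread between hearts. A step followed: unconventional T cells lay above NK cells (1.28%) in 6 of 6 hearts, with ranges that did not overlap. Trm-like cells and Tcm, both at 1.27%, lay beside NK cells, and Tcm lay above Treg (1.11%) in 6 of 6 hearts. Treg, Tn (1.10%), monocyte-derived dendritic cells (Mo-DCs, 1.09%) and B cells were not ordered beyond the spread, and B cells lay above fibroblasts in 6 of 6 hearts.

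In mt- share, B cells lay above Tn and Tcm (7.02%) above Trm-like cells (5.72%) in 6 of 6 hearts, the latter without overlap. The order Tn over Tcm held in 4 of 6 hearts, and every step from Trm-like cells down to monocytes held in 3 to 5 of 6. Over the 14 types the nuclear and mt- shares had a Pearson's r of -0.565 (Spearman's rho -0.587), and r was between -0.655 and -0.361 within each heart. Both shares come from the same libraries and are parts of the same total, so the r is a description.

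**Figure D1:**
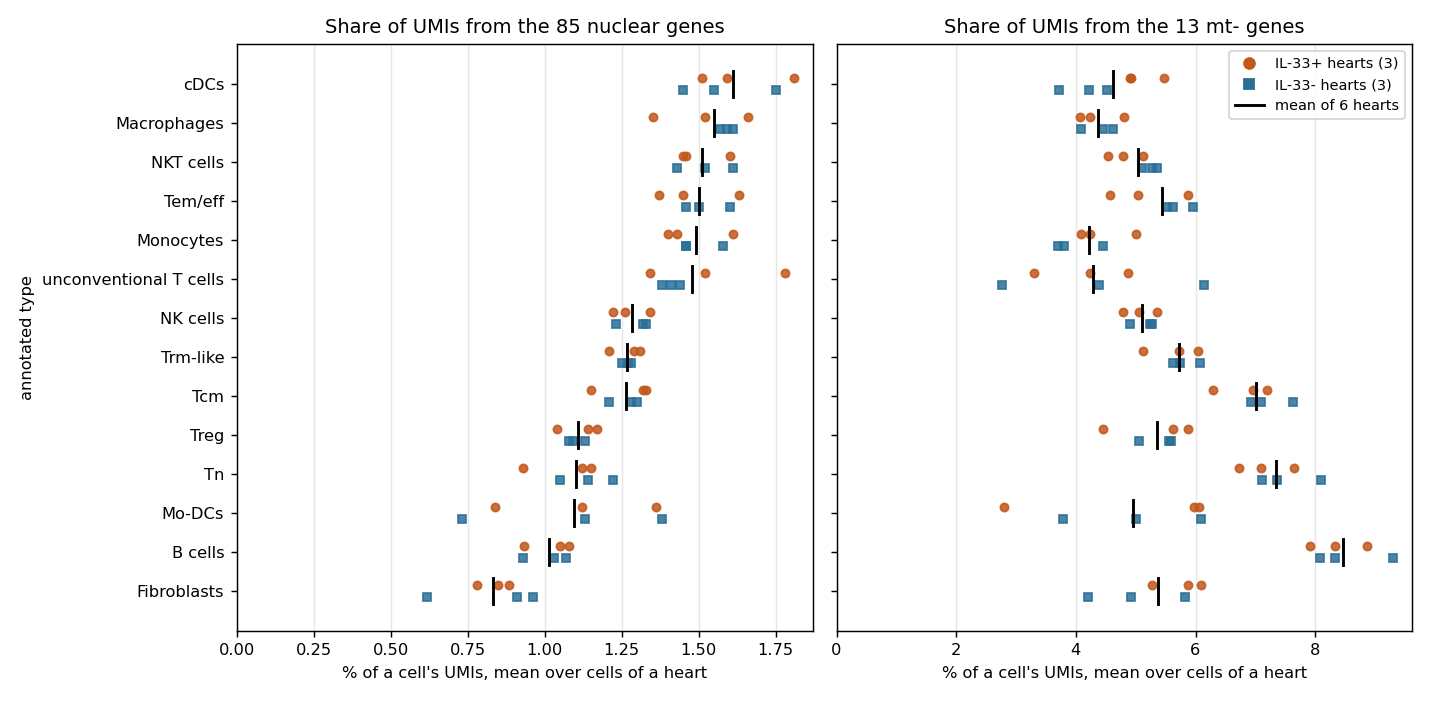
Share of a cell's UMIs, in percent, from the 85 nuclear genes (left) and the 13 mt- genes (right) in each of the 14 annotated types, with a point for each heart (circles, 3 IL-33+ hearts; squares, 3 IL-33- hearts) and a bar at the mean of 6 hearts. Types are sorted by nuclear share, from cDCs at 1.61% to fibroblasts at 0.833%, and the mt- shares do not follow that order, with B cells at 8.47% and monocytes at 4.22%.

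Sequencing depth moved with this order in part, and ribosomal protein transcripts differed between types without following it. Median UMIs per cell were 2292 in B cells, 2764 in Tn and 2711 in NK cells, but 5693 in Tem/eff, 6606 in macrophages, 6709 in monocytes and 10175 in unconventional T cells. Fibroblasts were an exception, lowest in nuclear share with a median of 5790 UMIs. Over the 14 types, median UMIs had an r of 0.569 with the nuclear share and -0.599 with the mt- share. Within a type, the deeper cells had the higher nuclear share in 14 of 14 types, and the higher mt- share in 9. Ribosomal protein genes took 19.9% of UMIs in Tn, 13.4% in Tem/eff, 9.39% in macrophages and 7.15% in fibroblasts. They took 15% in NKT cells, 13.5% in B cells, 11.1% in cDCs and 5.8% in Mo-DCs, with no steady rise or fall along the nuclear share. Shares recomputed in cells of like depth, and outside mt- and ribosomal genes, are therefore given beside the pairs of types.

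Some annotated types held cells with markers of others. Of the 204 Mo-DCs, 48 (23.5%) carried at least 4 of 8 neutrophil markers, and their mt- share was 2.77%, against 6.64% in the other Mo-DCs, with a nuclear share of 0.794% against 0.969%. Of the 375 fibroblasts, 64 (17.1%) carried at least 3 of 6 endothelial markers and had a mt- share of 7.1% and a nuclear share of 1.06%, against 4.99% and 0.849% in the rest. Of the 83 unconventional T cells, 48 carried both T cell and macrophage markers, with a nuclear share of 1.42% against 1.44% in the others. Taken as the median over cells rather than the mean over hearts, the nuclear share was 0.788% in Mo-DCs and 0.856% in fibroblasts, so the place of these types at the low end depends on the summary.

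Single members followed the shared order to different degrees. Among the 78 nuclear members with 200 or more UMIs, 23 (29.5%) had their highest mean in cDCs, against 6.67% of all 8383 genes of that depth, 12 in Tem/eff (15.4%, all genes 7.67%) and 10 in monocytes (12.8%, all genes 9.29%). Fibroblasts were lowest for 31 (39.7%, all genes 16.4%) and Mo-DCs for 22 (28.2%, all genes 16.6%). Of the 13 mt- genes, 10 were highest in B cells (all genes 12%) and 9 were lowest in monocytes (all genes 15.4%). Each nuclear member's profile over the 14 types was compared with the summed profile of the other members. The median r was 0.71, and 60 of 78 members were at 0.5 or above. The members most like the rest were the complex V subunits Atp5j2 (r = 0.964) and Atp5k (r = 0.941), and the 2 members below 0 were complex I subunits, Ndufs1 (r = -0.245) and Ndufa9 (r = -0.00536). These 14 points share the depth differences given above.

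**Figure D2:**
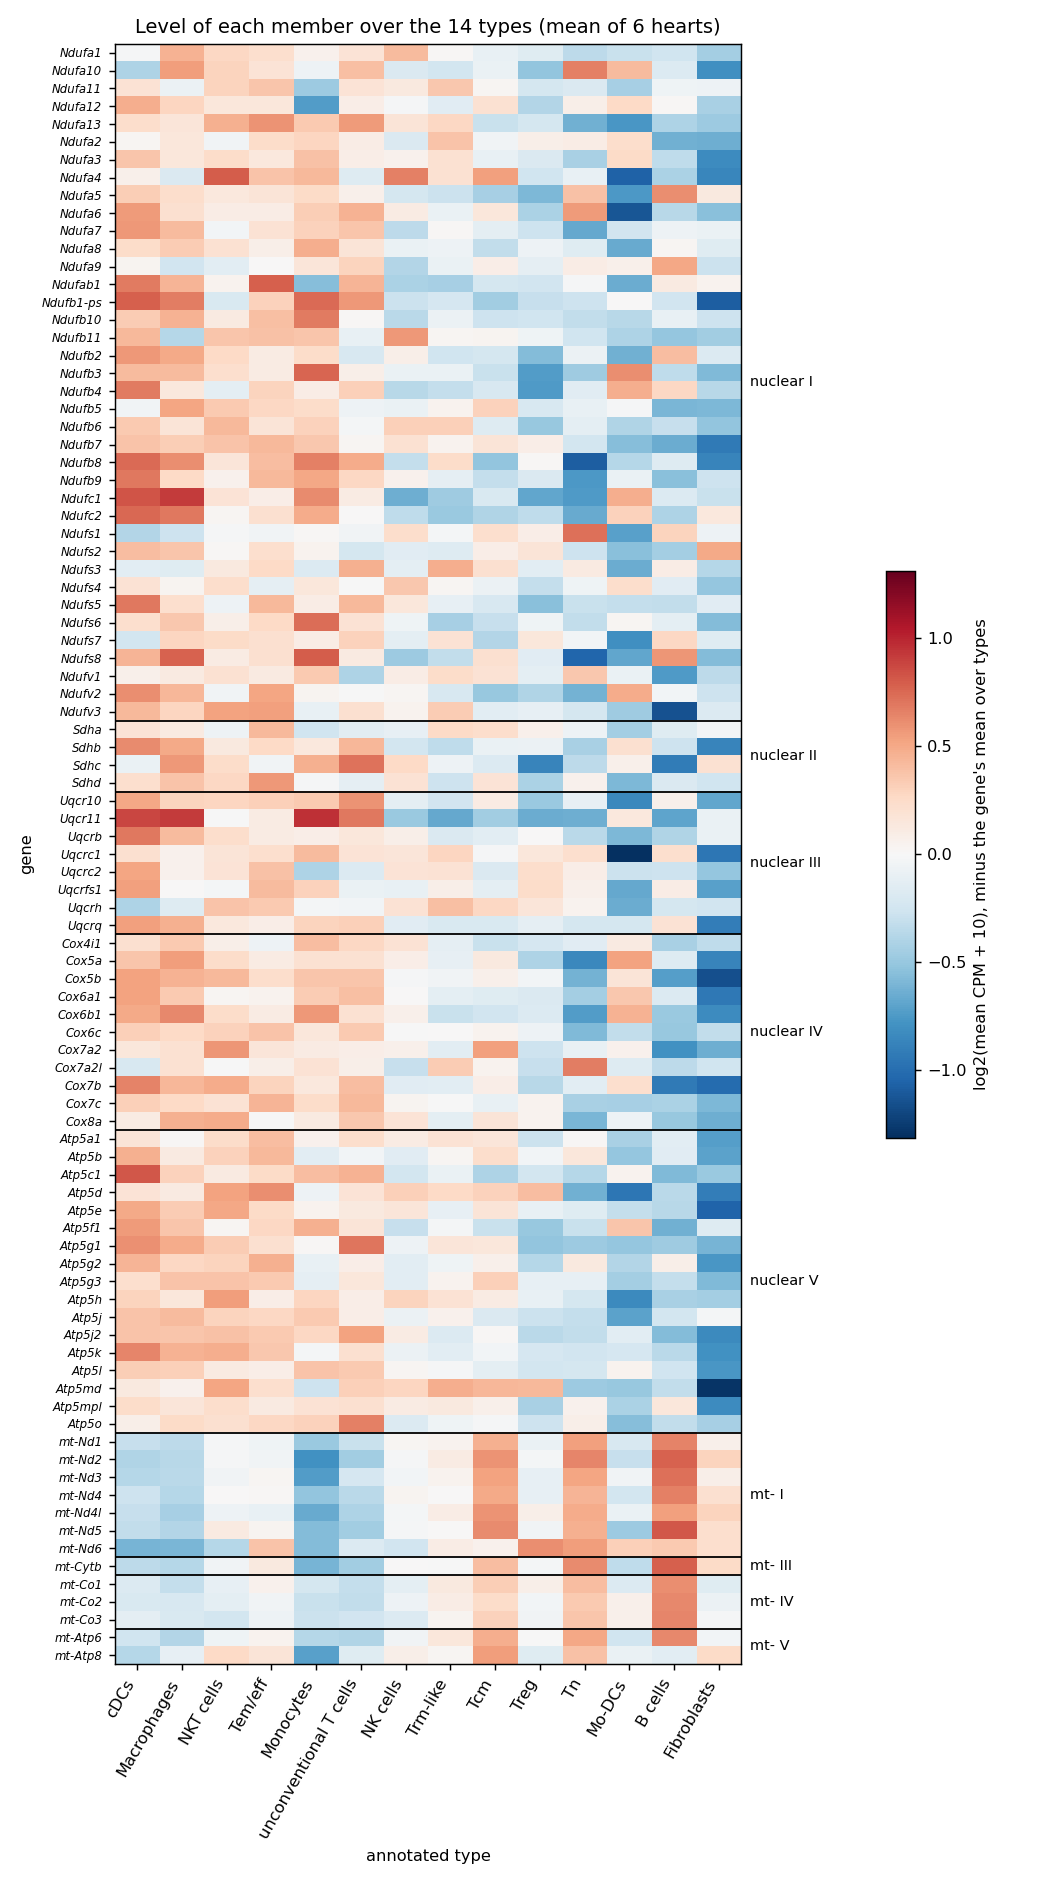
Heat map of the 91 members with 200 or more UMIs (rows, grouped by genome and complex) over the 14 types (columns, sorted by nuclear share). Colour gives log2(mean CPM + 10, mean of 6 hearts) minus the gene's mean over types, on a scale set to the most extreme value. Red lies to the left and blue to the right for most nuclear genes, fibroblasts are the lowest type for 31 of 78 nuclear genes, and most mt- rows are red in B cells, Tn and Tcm.

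Macrophages, effector T cells and fibroblasts were then followed gene by gene within the 6 hearts, macrophages and Tem/eff each against Tn, and fibroblasts against macrophages. Since the types were defined on the same transcripts, these are descriptions, and a member is counted when it differed in the same direction in all 6 hearts. Macrophages were higher than Tn for 30 of 81 nuclear members tested (37%), against 15% of 10394 genes, and lower for 1, against 11.5%. Tem/eff were higher than Tn for 28 of 78 nuclear members (35.9%), against 13.7% of 9934 genes, and lower for 2, against 4.48%. Fibroblasts were lower than macrophages for 44 of 83 nuclear members (53%), against 11.8% of 12378 genes, and higher for none, against 9.12%. The median log2 ratio of the nuclear members was 0.57 (all genes 0), 0.51 (all genes 0.22) and -0.70 (all genes 0.01) in the same order of pairs.

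The mt- genes went the other way in each pair. Macrophages were lower than Tn for 12 of 13 mt- genes and Tem/eff lower than Tn for 11 of 13, with median log2 ratios of -0.84 and -0.47. Fibroblasts were higher than macrophages for 3 of 13 in all 6 hearts, with a median of 0.57, and for 11 of 13 in the 4 hearts with at least 10 cells of both types, where 25.6% of all genes were higher.

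As a whole, the nuclear share in macrophages was 1.41 times that in Tn (median of 6 hearts, range 1.20 to 1.64) and the mt- share 0.616 times (0.505 to 0.629). In cells of 3000 to 5000 UMIs the ratios were 1.22 and 0.691, and outside mt- and ribosomal genes 1.19 and 0.517. The nuclear share in Tem/eff was 1.35 times that in Tn (1.22 to 1.57) and 1.20 times outside mt- and ribosomal genes, but 0.995 times in cells of 3000 to 5000 UMIs, above 1 in 3 of 6 hearts. Its mt- share was 0.722 times that in Tn (0.643 to 0.874), 0.676 times in cells of like depth and 0.649 times outside mt- and ribosomal genes. In such cells 10 of 81 nuclear members were still higher in macrophages than in Tn in all 6 hearts (all genes 7.2%), and 1 of 78 was higher in Tem/eff (all genes 5.95%). The higher nuclear share of Tem/eff was thus not seen at matched depth, while that of macrophages was smaller and kept its direction. Levels and counts given by complex below are over cells of all depths, those of Tem/eff among them. The nuclear share in fibroblasts was 0.545 times that in macrophages (0.381 to 0.656), 0.571 times at matched depth and 0.54 times outside mt- and ribosomal genes, and the mt- share was 1.26 times (1.03 to 1.44), then 1.24 and 1.25 times. Among nuclear members, 18 of 83 were still lower in fibroblasts in all 6 hearts at matched depth (all genes 6.12%). At that depth hearts 2 and 5 gave 1 fibroblast each, and heart 3 gave 67 of the 89. The nuclear ratios of hearts 2 and 5 were 0.388 and 0.294, and their mt- ratios 1.53 and 1.67. For the mt- genes, 8 of 13 were lower in all 6 hearts at matched depth in both comparisons with Tn (all genes 5.31% for macrophages and 2.26% for Tem/eff).

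**Figure D3:**
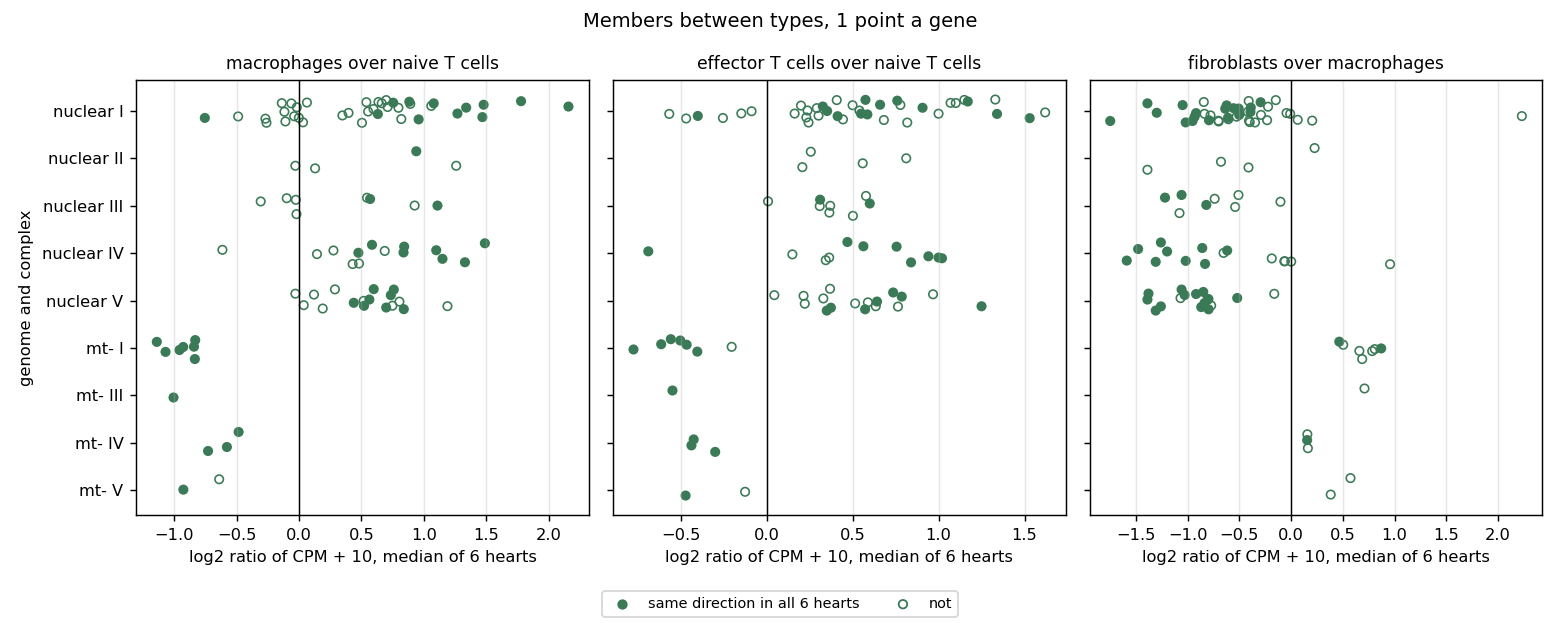
Log2 ratio of CPM + 10 between 2 types for each member (a point is a gene, at the median of 6 hearts), by genome and complex, for macrophages over Tn, Tem/eff over Tn and fibroblasts over macrophages. Filled points had the same direction in all 6 hearts: 30, 28 and 44 nuclear members higher, higher and lower, and 12, 11 and 3 mt- members lower, lower and higher. The vertical line marks no difference.

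Complex I, the NADH dehydrogenase, held both the members with the largest ratios of macrophages over Tn and many without a shared direction. Its nuclear genes took 0.428% ± 0.0298 of UMIs in macrophages (SD, n = 6), 0.301% ± 0.059 in Tn and 0.24% ± 0.0675 in fibroblasts. In macrophages 11 of 38 tested members were above Tn in all 6 hearts, and in Tem/eff 12 of 38. Ndufb8, a membrane-arm subunit, had a lowest, median and highest heart of 12.5, 28.1 and 66.5 CPM in Tn and 96.5, 132 and 161 CPM in macrophages, groups that did not overlap, with a median log2 ratio of 1.78. Ndufs8, an iron-sulfur subunit, had 0, 9.15 and 22.4 CPM in Tn and 30.9, 49.5 and 146 CPM in macrophages, a median log2 ratio of 2.16.

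Both were also lower in fibroblasts than in macrophages in 6 of 6 hearts, Ndufb8 at 0, 46.3 and 94.7 CPM. Ndufb1-ps, a symbol that the annotation lists as a noncoding gene in the place of the Ndufb1 subunit, had 412, 515 and 624 CPM in macrophages and 85.5, 151 and 205 CPM in fibroblasts, a log2 ratio of -1.75. Ndufa4, a small subunit now also assigned to complex IV, followed lymphoid types instead: it had 338, 425 and 496 CPM in NK cells and 122, 230 and 337 CPM in macrophages, and it was above Tn in macrophages in only 2 of 6 hearts. Ndufa2 differed little between macrophages (244, 276 and 311 CPM) and Tn (243, 260 and 319 CPM).

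Complex II, succinate dehydrogenase, also a TCA cycle enzyme, was low and gave few ordered members. Its 4 genes together took 0.0317% ± 0.00918 of UMIs in macrophages and 0.0211% ± 0.00851 in Tn. Sdhb, the iron-sulfur subunit, was the member above Tn in 6 of 6 hearts in macrophages, with 15.2, 76.7 and 83.4 CPM against 0, 35.7 and 50.9 CPM. Sdha, the flavoprotein subunit, split 3 against 3 hearts, with 70.7, 90.3 and 160 CPM in macrophages and 19, 103 and 128 CPM in Tn. The membrane anchors Sdhc and Sdhd were above Tn in macrophages in 5 and 3 of 6 hearts. In fibroblasts against macrophages no complex II gene had the same direction in all 6 hearts.

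Complex III, the cytochrome bc1 complex, was uneven between its subunits. It took 0.15% ± 0.0139 of UMIs in macrophages, 0.123% ± 0.00769 in Tn and 0.0965% ± 0.0106 in fibroblasts. The small subunits Uqcr11 and Uqcrq were above Tn in macrophages in 6 of 6 hearts: Uqcr11 had 167, 232 and 343 CPM in macrophages and 22, 89.9 and 107 CPM in Tn, and Uqcrq 193, 220 and 322 CPM against 116, 142 and 157 CPM. Neither pair of groups overlapped. Uqcrc1, a core protein, did not separate the types, with 44.3, 56.2 and 76.5 CPM in macrophages and 41.7, 72.2 and 84.7 CPM in Tn. Uqcrh, the hinge subunit, had 260, 527 and 618 CPM in macrophages and 480, 579 and 699 CPM in Tn, and was higher in macrophages in 2 of 6 hearts. Uqcr10 was above Tn in 6 of 6 hearts in Tem/eff and in 4 of 6 in macrophages.

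Complex IV, cytochrome c oxidase, had the largest fraction of nuclear members higher in all 6 hearts in macrophages than in Tn, 8 of 14, and in Tem/eff than in Tn, 7 of 11, where 1 more was lower. Its nuclear genes took 0.414% ± 0.0224 of UMIs in macrophages, 0.261% ± 0.00954 in Tn and 0.209% ± 0.0252 in fibroblasts. Cox5b, a regulatory subunit, had 61.7, 77.3 and 104 CPM in Tn, 147, 165 and 257 CPM in macrophages and 0, 59.9 and 74.3 CPM in fibroblasts. Cox4i1, the broadly used isoform of subunit IV, had 449, 583 and 649 CPM in Tn, 747, 781 and 890 CPM in macrophages and 440, 484 and 617 CPM in fibroblasts. For both genes, macrophages did not overlap with either of the other types.

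Cox6a1, whose promoter is printed above, had 116, 232 and 296 CPM in Tn, 290, 417 and 481 CPM in macrophages and 59.8, 178 and 223 CPM in fibroblasts. Over cells of all depths, Cox7c was above Tn in 6 of 6 hearts in Tem/eff. It had 457, 531 and 581 CPM there, against 192, 296 and 333 CPM in Tn. Cox7a2l, which is known for joining complexes III and IV in supercomplexes rather than as a core subunit, ran against the others. It had 443, 466 and 499 CPM in Tn and 251, 296 and 408 CPM in Tem/eff, lower in 6 of 6 hearts and without overlap.

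Complex V, the ATP synthase, was the most uniform in the difference between fibroblasts and macrophages, with 14 of 17 members lower in fibroblasts in all 6 hearts. Its nuclear genes took 0.527% ± 0.0519 of UMIs in macrophages, 0.394% ± 0.041 in Tn and 0.266% ± 0.0344 in fibroblasts. Atp5e had 485, 503 and 550 CPM in macrophages and 140, 197 and 230 CPM in fibroblasts, a log2 ratio of -1.38. Atp5md, a small membrane subunit of the synthase dimer, had 248, 261 and 297 CPM in macrophages, 158, 174 and 236 CPM in Tn and 81.7, 99.7 and 121 CPM in fibroblasts, so that the 3 types did not overlap.

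Atp5l, the g subunit of the membrane part, was above Tn in macrophages in 6 of 6 hearts (log2 0.56) and below macrophages in fibroblasts in 6 of 6 (log2 -1.06). Atp5d, the delta subunit of the central stalk, gave the larger difference in Tem/eff. Over cells of all depths it had 190, 199 and 257 CPM there, against 44.8, 77.5 and 147 CPM in Tn. Atp5a1, the catalytic core's alpha subunit, did not separate macrophages (315, 467 and 531 CPM) from Tn (323, 463 and 514 CPM).

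Fibroblasts, the one non-leukocyte type annotated, came from a preparation enriched for leukocytes, and 2 hearts gave fewer than 10 of them. In the 4 other hearts 54 of 83 nuclear members were lower in fibroblasts, where 19% of all genes were. The cardiomyocyte markers summed to a mean of 60.3 CPM in fibroblasts and 18.1 CPM in macrophages, and their part in the difference was not tested.

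The 13 mt- genes contributed very unequally to mitochondrial UMIs, and the main contributors kept similar fractions between types. They encode 7 subunits of complex I, 1 of complex III, 3 of complex IV and 2 of complex V. Among mt- UMIs, mt-Co1, the catalytic subunit of complex IV, took 26.6%, mt-Co3 17.7%, mt-Atp6 16.3% and mt-Co2 15.2% as means over types. mt-Cytb, the complex III subunit, took 6.72%. Among the complex I genes, mt-Nd4 took 5.25%, mt-Nd1 4.64%, mt-Nd2 3.24%, mt-Nd3 2.46%, mt-Nd5 0.937% and mt-Nd4l 0.652%. mt-Atp8, which ends inside mt-Atp6, took 0.214%, and mt-Nd6, the only one of these genes on the other strand, 0.0896%. These are fractions of UMIs read near 3′ ends and do not rank the genes by transcript number.

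The make-up shifted between types by a different amount for each gene. The ratio of the highest to the lowest type was 1.17 to 1.28 for mt-Nd1, mt-Co1, mt-Co2, mt-Co3 and mt-Atp6, and 1.30 to 1.67 for mt-Nd2, mt-Nd3, mt-Nd4, mt-Nd4l and mt-Cytb. It was 1.72 for mt-Nd5, 2.25 for mt-Atp8 (0.123% in B cells to 0.278% in NKT cells) and 2.42 for mt-Nd6 (0.0595% in cDCs to 0.144% in Treg), the scarcest of the 13. mt-Nd2 went from 2.36% of mt- UMIs in monocytes to 3.95% in fibroblasts, and mt-Cytb from 5.6% to 8.01% over the types, while mt-Co1 was lowest in fibroblasts (24%) and highest in monocytes (29.2%). B cells were high for nearly all of these genes: mt-Co1 had 20881, 21910 and 23728 CPM in B cells and 10311, 11900 and 12591 CPM in macrophages, and mt-Cytb had 5713, 6128 and 6901 CPM against 2499, 2835 and 3041 CPM. The groups did not overlap for either gene. mt-Nd2 was lower in macrophages than in Tn in 6 of 6 hearts, with 1152, 1349 and 1555 CPM against 2324, 2585 and 3438 CPM. The study removed cells with a high mt- share before deposit, so the upper end of these values is bounded by that filter.

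Tissue-specific isoforms were rare and were found in few cells. The muscle isoforms Cox7a1, Cox8b and Cox6a2 had 39, 8 and 159 UMIs in the whole table, the testis isoforms Cox6b2 and Cox8c had 50 and 1, Cox4i2 had 66 and Ndufa4l2 had 139. Cox6a2, the heart and skeletal muscle isoform of subunit VIa, was concentrated in cDCs, with 103 of its 159 UMIs (64.8%). Its level there was 55.6, 138 and 183 CPM in the IL-33+ hearts and 70.2, 0 and 72.3 CPM in the IL-33- hearts, which overlap. The log2 difference was 1.61 (95% CI 0.19 to 3.03, limma adjusted p = 0.712). A UMI of it was found in 20 of 171 cDCs (11.7%), against 1.4% of macrophages and 7 of 931 NK cells (0.752%), taken as a type that should lack it. Median depth was 6544 UMIs in cDCs and 2711 in NK cells.

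The 20 cDCs with Cox6a2 shared other transcripts. All 20 had Siglech, Ccr9 and Tcf4, genes best known from plasmacytoid dendritic cells, all 20 had Irf8, and 17 had Ly6d. Among the 151 other cDCs, 12 had Siglech, 16 Ccr9, 76 Tcf4, 94 Irf8 and 7 Ly6d. Flt3 was found in 85% of the 20 and 61.6% of the others. Of the genes of conventional dendritic cells, Cd209a was in 50% and 35.8% and Clec9a in 30% and 13.9%, whereas Xcr1 was in 0 and 15 cells. The cells with Cox6a2 had a median of 6051 UMIs and the others 6564, so they were not deeper. The accompanying genes were chosen after the values were seen.

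Cox4i2 and Ndufa4l2, isoforms known to be induced by low oxygen and to be used by mural cells, were concentrated in fibroblasts. Ndufa4l2 had 115 of its 139 UMIs there (82.7%), in 69 of 375 cells (18.4%) against 0.537% of NK cells. Its fibroblast level was 53, 0 and 48.5 CPM in the IL-33+ hearts and 39, 33.2 and 67.9 CPM in the IL-33- hearts. Cox4i2 had 44 of its 66 UMIs in fibroblasts (66.7%), in 24 of 375 cells (6.4%) against 0.322% of NK cells, with 19.8, 24.5 and 17.7 CPM in the IL-33+ hearts and 15.8, 0 and 5.14 CPM in the IL-33- hearts. The log2 difference of Cox4i2 was 0.96 (95% CI -0.53 to 2.44, limma adjusted p = 0.998), its 0 came from a heart with 4 fibroblasts, and the groups overlapped for Ndufa4l2.

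Some genes known from pericytes were found more often in cells with these isoforms and others were not, all of them chosen after the values were seen. Among the 24 fibroblasts with Cox4i2, 13 had Rgs5 and 11 had Ndufa4l2, against 39 and 58 of the 351 others, and endothelial Cdh5 was in 29.2% against 14.5%. Among the 69 with Ndufa4l2, 23 had Notch3 and 9 had Higd1b, against 26 and 4 of the others, while Kcnj8 was in 1.45% against 2.29%, Abcc9 in 11.6% against 9.48% and the fibroblast gene Pdgfra in 72.5% against 63.7%. Cells with either isoform were deeper, at a median of 7348 UMIs against 5601 for Ndufa4l2 and 7346 against 5645 for Cox4i2, and the part of depth in these counts was not tested.

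**Figure D4:**
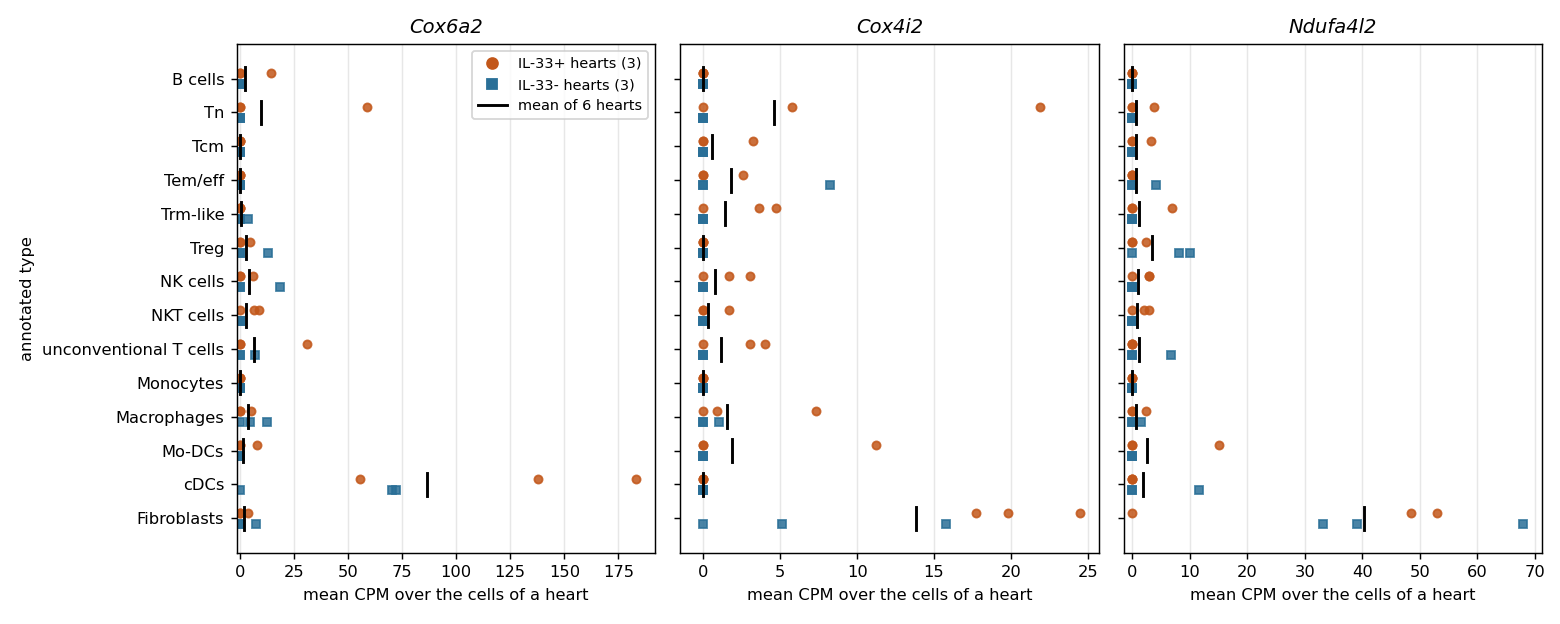
Mean CPM of Cox6a2, Cox4i2 and Ndufa4l2 over the cells of each heart, by type (circles, 3 IL-33+ hearts; squares, 3 IL-33- hearts; bars, mean of 6 hearts), each panel with its own axis. Cox6a2 reaches 183 CPM in cDCs, and Ndufa4l2 and Cox4i2 reach 67.9 and 24.5 CPM in fibroblasts.

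Other mitochondrial gene lists followed the nuclear members only in part. Between macrophages and Tn, 4 of 19 carriers, channels and uncoupling genes were higher in macrophages in all 6 hearts (median log2 0.50), as were 3 of 10 antioxidant genes, 2 of 20 TCA cycle and pyruvate entry genes and 1 of 42 assembly factors (median log2 0.02). Of 27 genes of mitochondrial biogenesis and mtDNA expression, 1 was higher and 3 were lower. Of 15 cytochrome c, coenzyme Q and related genes, 1 was higher and 1 lower. Ribosomal protein genes went the other way, with 72 of 89 lower in macrophages.

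Between fibroblasts and macrophages, 7 of 19 carriers, 5 of 10 antioxidant genes, 2 of 20 TCA cycle genes, 2 of 45 assembly factors and 2 of 27 biogenesis genes were lower in fibroblasts in all 6 hearts. Ribosomal protein genes here went the same way as the nuclear members, with 40 of 89 (44.9%) lower in fibroblasts and 2 higher. Between Tem/eff and Tn, 5 of 19 carriers, 2 of 20 TCA cycle genes and 3 of 42 assembly factors were higher in all 6. Set beside the 11.8% of all genes lower in fibroblasts and the 15% higher in macrophages, the assembly factors and TCA cycle genes were at or under the background in these pairs.

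The comparison of IL-33+ with IL-33- hearts asked whether graft IL-33 altered these transcripts within any type. No member was called. Of 1093 nuclear and 182 mt- combinations of gene and type tested, 0 had a limma adjusted p of 0.05 or less, and the lowest limma adjusted p were 0.712 and 0.564. At an unadjusted p of 0.05 or less there were 27 nuclear combinations (2.47%) and 11 mt- combinations (6.04%), against 4.71% of 113178 over all genes. These counts rested on the setting: over the settings tried, nuclear combinations ran from 12 to 41 and mt- combinations from 7 to 32, the latter by limma-voom, and 27 mt- combinations were reached without heart 1. Over all genes 10 combinations were called, a count that ran from 0 with at least 50 UMIs required to 108 without heart 1, with 73 without heart 3 and 55 without heart 6. The 10 came from 8 genes of chemokines, granzyme and myeloid products: Ccl2, Ccl7, Ccl8, Ccl24, Cxcl9, Chil3, Gzma and S100a8. With 3 hearts against 3, an exact permutation test of a single value cannot go below 0.1.

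The share of all genes called was low in every type, which is the background for the members. It was 0% in B cells, Tn, Tcm, Tem/eff, Treg, NK cells, NKT cells, macrophages and cDCs. It was 0.0128% in Trm-like cells, 0.0272% in unconventional T cells, 0.014% in monocytes, 0.0702% in Mo-DCs and 0.0187% in fibroblasts. A difference in the effect between macrophages and NK cells was called for no member and for 0% of 8626 genes. Simulated hearts in which 200 genes changed 4-fold had 87% of them recovered in NK cells, 74% in macrophages and 55.5% in fibroblasts. False calls there numbered 6, 5 and 12. The changed genes were drawn from those with more UMIs, and the spread between hearts was a fixed setting, not estimated from these hearts. These rates therefore do not give the power of the test for the members.

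The nuclear and mt- shares themselves overlapped between the groups in every type, other than the mt- share of cDCs. In NK cells, the most numerous type, the nuclear share was 1.34%, 1.22% and 1.26% in the IL-33+ hearts and 1.23%, 1.32% and 1.33% in the IL-33- hearts. In macrophages it was 1.66%, 1.52% and 1.35% against 1.59%, 1.61% and 1.57%. The median width of the limma 95% CI to each side was 0.19 log2 units for mt- genes and 0.51 for nuclear genes in NK cells. In macrophages it was 0.37 and 0.59. Changes smaller than these could not have been told from 0 gene by gene. These intervals are not adjusted for the number of genes, so larger changes could also go uncalled.

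The mt- genes leaned together within several types, in either direction, without passing the test. They were higher in the IL-33+ hearts for 12 of 13 genes in cDCs and monocytes (median log2 0.22 in monocytes) and 11 of 13 in fibroblasts (0.22), and lower for 12 of 13 in Tcm (-0.10) and Tem/eff (-0.16) and 11 of 13 in Tn (-0.16), NKT cells (-0.14) and Trm-like cells (-0.06). In cDCs the groups separated for most of these genes. The cDC mt- share was 4.90%, 4.93% and 5.47% in the IL-33+ hearts and 4.52%, 4.22% and 3.71% in the IL-33- hearts. For 9 of 13 every IL-33+ heart lay above every IL-33- heart, an order that 7.34% of all genes had in cDCs. Their log2 differences had a median of 0.29, against 0.06 for all genes in cDCs. mt-Nd4 differed by 0.47 (95% CI 0.15 to 0.80), mt-Nd1 by 0.43 and mt-Atp6 by 0.34, and limma adjusted p over the 13 genes were 0.564 and above. The mt- genes share transcripts and are not independent of each other.

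These cDC values rested on 38, 6 and 44 cells in the IL-33+ hearts and 48, 9 and 26 in the IL-33- hearts. Median depth was 6627, 6320 and 6214 UMIs against 6438, 7600 and 7593. Within cDCs the mt- share was lower in the deeper cells, at 4.26% against 5.18% in the shallower ones. The part of depth in the group difference was not tested. Cells with Siglech numbered 8, 1 and 16 against 4, 0 and 3, and without them the mt- share was 4.69%, 4.83% and 5.00% against 4.43%, 4.22% and 3.51%, still without overlap. In cells of 3000 to 5000 UMIs it was 6.76%, 3.98% and 6.70% against 5.93%, 4.29% and 3.55%, and the groups overlapped. These windows held 8, 2 and 10 against 12, 2 and 5 cells, and the overlap rests on the 2 cells of heart 2.

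A looser rule asked for a 2-fold difference at an unadjusted p of 0.05 or less, and 18 nuclear combinations and 1 mt- combination passed it, 8 of the nuclear ones higher in the IL-33+ hearts and 10 lower. That is 1.65% of nuclear combinations, against 2.67% over all genes. By type, the share of all genes passing this rule was 3.72% in B cells, 4.05% in Tn, 2.16% in Tcm, 0.724% in Tem/eff, 3.02% in Trm-like cells, 3.67% in Treg, 1.05% in NK cells, 0.99% in NKT cells, 3.77% in unconventional T cells, 3.68% in monocytes, 1.93% in macrophages, 3.39% in Mo-DCs, 4.59% in cDCs and 2.68% in fibroblasts.

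The members that passed showed no common direction. Ndufs7, an iron-sulfur subunit of complex I, was at 7.85, 11.8 and 15.9 CPM in Tcm of the IL-33+ hearts and at 41.9, 46.9 and 38.6 CPM in the IL-33- hearts, a log2 difference of -1.28 (95% CI -2.21 to -0.35). In Trm-like cells it was at 29.6, 12 and 36.9 CPM against 70, 70 and 52.7 CPM. The groups did not overlap in either type, and limma adjusted p were 0.951 and 0.923. These levels rest on 2, 1 and 3 against 10, 10 and 7 UMIs in Tcm. In Trm-like cells they rest on 6, 1 and 12 against 12, 8 and 11 UMIs. Of all genes, 392 of 7767 in Tcm and 432 of 7819 in Trm-like cells were likewise lower without overlap. Ndufb2, an accessory subunit, was at 73, 99.7 and 68.5 CPM in fibroblasts of the IL-33+ hearts and at 39.7, 0 and 31.3 CPM in the IL-33- hearts, and it also passed in monocytes.

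Ndufb5 and Ndufb6, accessory subunits of the membrane arm, changed sides between types. Ndufb5 had a log2 difference of -1.73 in Tn and 1.14 in Treg. Ndufb6 had one of -1.77 in Tn, -1.32 in monocytes and 2.89 in Mo-DCs. Its value in Mo-DCs rests on 10, 2 and 13 UMIs in the IL-33+ hearts and 1, 0 and 0 in the IL-33- hearts. In Tn of the IL-33+ hearts Ndufb6 was at 0, 27.8 and 91 CPM, against 98.3, 114 and 103 CPM. Tn gave 5 of the 10 lower combinations, and a heart had as few as 14 Tn, so that a value of 0 there rests on few UMIs. The 1 mt- combination was mt-Nd6 in monocytes, at 27.2, 51 and 61.5 CPM against 0, 0 and 32.4 CPM. It rests on 18, 1 and 6 UMIs against 0, 0 and 3.

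**Figure D5:**
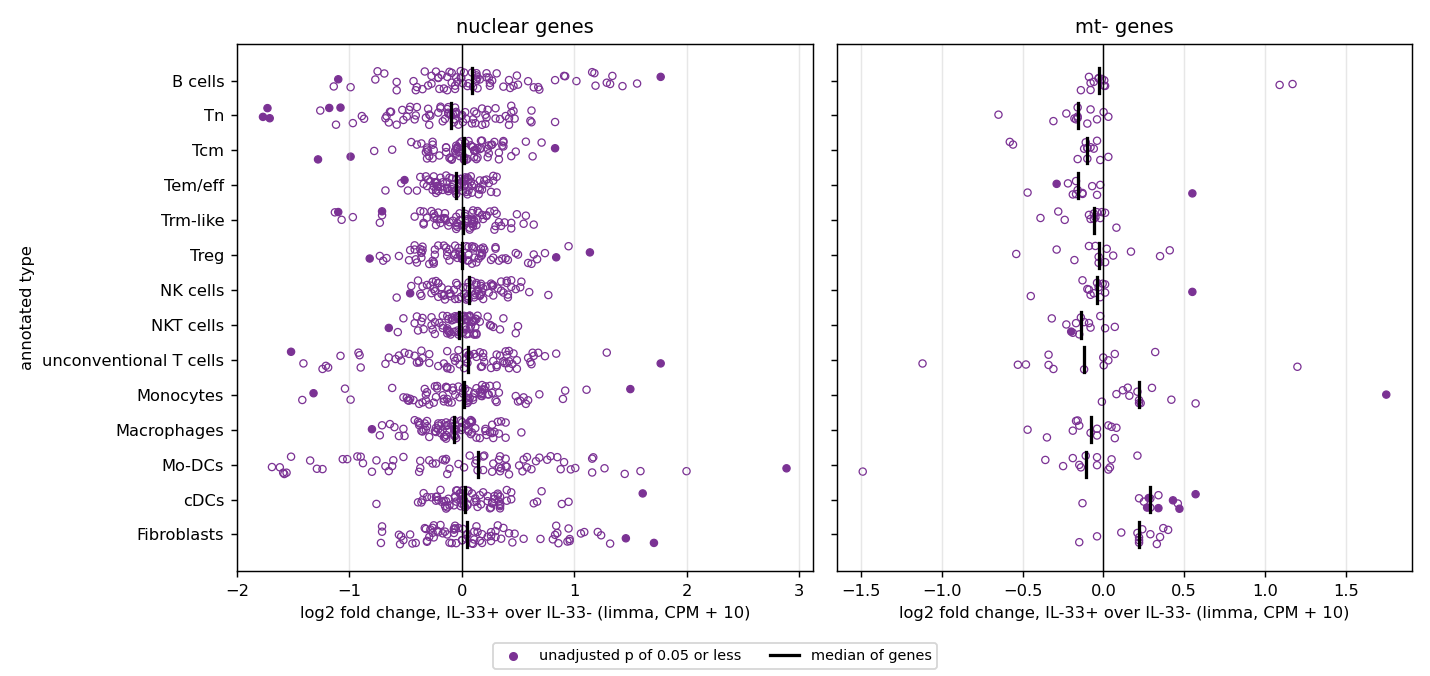
Log2 fold change of each member between IL-33+ and IL-33- hearts (limma, CPM + 10, 3 hearts a group) in each type, for nuclear genes (left) and mt- genes (right). A point is a gene, filled where the unadjusted p was 0.05 or less, and the bar is the median of the genes. No point had an adjusted p of 0.05 or less, and the mt- genes of cDCs have a median of 0.29.

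The other mitochondrial lists had 0 called combinations as well. The antioxidant genes had the lowest limma adjusted p among them, 0.358, with 3 of 128 combinations past the 2-fold rule (2.34%). TCA cycle and pyruvate entry genes had 7 of 257 (2.72%), assembly factors 4 of 421 (0.95%) and carriers, channels and uncoupling genes 2 of 246 (0.813%). Biogenesis and mtDNA expression genes had 5 of 265 (1.89%), and the genes of cytochrome c, coenzyme Q and complex III partners 3 of 156 (1.92%).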

How the data were processed

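Cells of 6 Bm12 heart grafts (3 IL-33+, 3 IL-33-) were profiled by 10x 3′ single-cell RNA-seq with cell hashing. The authors aligned reads with Cell Ranger to the mm10 mouse genome, removed cells outside limits on UMIs, genes and mitochondrial share, annotated types and deposited log2(CPM + 1) values per cell and gene. These log2 values were turned back into UMIs: 99.94% of low values lay within 0.05 of a whole UMI, and 22 symbols had a low value that did not. No cell was removed as a doublet or otherwise.

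Here the heart was the replicate. Hearts were grouped by their hashtag labels, and levels were the mean CPM over a type's cells in a heart. IL-33+ and IL-33- hearts were compared in each type with limma 3.58.1 (R 4.3.3; lmFit, eBayes with trend) on log2(mean CPM + 10), over genes with at least 10 UMIs and a UMI in at least 3 hearts. Benjamini-Hochberg adjustment ran over all genes of a type, and an adjusted p of 0.05 or less was called. Fold changes of low genes are understated on this scale. The labels number the hearts as separate grafts, and p-values measure the spread between these 6 hearts only. The same limma fit was run on simulated hearts, with UMIs summed per heart. Types were compared as hearts in the same direction, with no test. Alternatives changed the added CPM, the filter, scaling, cells, hearts and test (limma-voom on summed UMIs), and the closing section gives their effect.

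Genes named were the mt- genes, the 3 nuclear members of each complex with the highest mean and the 2 with the widest span over types, tissue isoforms with their partners, Cox7a2l, and members past 2-fold at an unadjusted p of 0.05 or less. Atp5j2, Atp5k, Ndufs1 and Ndufa9 fall outside this rule and were picked for their values. Cox5a also falls outside it and was named for its promoter window. The members and gene lists were chosen with earlier results of these data known. Of the 98 symbols, 97 matched the GENCODE vM21 annotation. UMIs mark 3′ ends, and intervals cover counting error or the spread between hearts as stated.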

Additional observations from a re-analysis of the deposited data

How the results depend on the processing

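The 3 counts of members called (nuclear, mt-, and macrophages against NK cells) were 0 in all 17 settings of the fit, by limma and limma-voom alike. At an unadjusted p of 0.05 or less there were 12 to 41 nuclear and 7 to 32 mt- combinations, and the number of nuclear combinations past the 2-fold rule ran from 1 to 26 and of mt- combinations from 0 to 2. No paired analysis was made because no pairing of IL-33+ with IL-33- hearts is described. With mt- and ribosomal genes left out of the total, the nuclear share of macrophages over Tn was 1.19 and the mt- share 0.517, against 1.41 and 0.616. In cells of 3000 to 5000 UMIs, an alternative chosen after seeing the data, these were 1.22 and 0.691, and the nuclear share of Tem/eff over Tn turned from 1.35 to 0.995 (0.876 to 1.39 over hearts); these cells are fewer, and the cause was not tested further. Leaving out each heart gave 1.38 to 1.44 and 1.28 to 1.41 for these nuclear ratios, 0.604 to 0.627 and 0.694 to 0.75 for the mt- ratios, and 0.512 to 0.579 (nuclear) and 1.25 to 1.27 (mt-) for fibroblasts over macrophages. The mt- ratio of fibroblasts over macrophages was above 1 in 6 of 6 hearts as reported. It was above 1 in 5 of 6 with summed UMIs, outside mt- and ribosomal genes or in cells of like depth. At like depth hearts 2 and 5 gave 1 fibroblast each. In cDCs, 2 to 8 of the 13 mt- genes had an unadjusted p of 0.05 or less over the settings, with median log2 differences of 0.25 to 0.40 and lowest adjusted p of 0.163 to 0.998. Precision was lowest in Mo-DCs, with a median standard error of 1.12 log2 units over all genes, against 0.35 in Tem/eff.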
